A study of Mus musculus with 12 samples.

Results

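The angiotensin and kinin peptide system was followed in isolated mouse cerebral vessels through 7 genes, chosen by name: Agt, Ace, Enpep, Mme, Agtr1a, Bdkrb1 and Bdkrb2. They are 7 of 54120 genes summed from the transcript estimates, and all 7 passed the filter on low counts that left 19151 genes to test. The vessels came from wild type C57BL6 mice aged 2 to 3 months. The mice received an intraperitoneal injection of PBS, or of lipopolysaccharide (LPS, a bacterial outer membrane component that sets off systemic inflammation) at 10 mg/kg. LPS-treated mice were taken 15 min, 30 min or 4 h later, and the time after PBS at which control mice were taken is not given in the sources used here. Each group had 3 libraries, and each library pooled the vessels of 1 male and 1 female mouse, so the spread between libraries is a spread between pools of 2 mice and sex cannot be separated. The vessels were collected from forebrain by density and mesh, without sorting cells.

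Angiotensinogen, encoded by Agt, is the precursor that renin cuts to angiotensin I. Angiotensin-converting enzyme (Ace) turns angiotensin I into the vasoconstrictor angiotensin II and also destroys bradykinin, so the angiotensin and kinin branches meet at this enzyme. Aminopeptidase A (Enpep) shortens angiotensin II, and neprilysin (Mme) cuts angiotensin I, bradykinin and other peptides. Angiotensin II acts through the type 1a receptor (Agtr1a), whereas kinins act through the bradykinin B2 receptor (Bdkrb2), which is usually present at rest, and the B1 receptor (Bdkrb1), which is best known for being induced by inflammation. In the brain, astrocytes make much of the angiotensinogen, ACE is found on endothelium and on choroid plexus epithelium, and aminopeptidase A is found on pericytes.

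In the GRCm38 annotation the genes lie on 5 chromosomes. Agt is on the minus strand at chr8:124556534-124569706 and Ace on the plus strand at chr11:105967945-105989964. Enpep (minus strand, chr3:129269175-129332720) and Mme (plus strand, chr3:63241537-63386030) share a chromosome but are far apart. Agtr1a is on the plus strand at chr13:30336441-30382867. Bdkrb2 (chr12:105563226-105595237) and Bdkrb1 (chr12:105603085-105605428) are neighbours on the plus strand, with Bdkrb2 first.

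Promoter windows were read from RefSeq for GRCm38.p6, 250 bases before to 50 bases after an annotated start, and 5 of the 7 genes have one. The 4 windows below are shown because Agt and Bdkrb2 passed the test in at least 1 comparison and because Ace has 2 starts that its transcripts use differently. They run 5′ to 3′ on the gene's own strand, in lower case, with the motifs found in capitals. The motifs searched on both strands were the TATA box TATAAA, the CCAAT box CCAAT, the cyclic AMP response element TGACGTCA, the AP-1 element TGANTCA, and the NF-kB element by name. The windows are Agt at chr8:124569657-124569956 (minus strand), the upstream Ace start at chr11:105967698-105967997, the internal Ace start at chr11:105974939-105975238 and Bdkrb2 at chr12:105562922-105563221.
Agt: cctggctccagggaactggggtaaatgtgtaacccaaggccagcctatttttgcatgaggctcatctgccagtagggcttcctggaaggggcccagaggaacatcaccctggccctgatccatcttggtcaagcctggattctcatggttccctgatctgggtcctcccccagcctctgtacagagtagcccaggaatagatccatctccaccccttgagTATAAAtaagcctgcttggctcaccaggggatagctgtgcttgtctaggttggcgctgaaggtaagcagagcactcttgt
Ace, upstream start: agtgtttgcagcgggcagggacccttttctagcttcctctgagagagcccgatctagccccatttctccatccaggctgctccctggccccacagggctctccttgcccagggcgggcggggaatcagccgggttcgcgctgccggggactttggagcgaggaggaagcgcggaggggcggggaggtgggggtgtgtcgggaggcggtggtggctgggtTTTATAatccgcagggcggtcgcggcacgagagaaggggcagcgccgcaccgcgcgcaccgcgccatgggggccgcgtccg
Ace, internal start: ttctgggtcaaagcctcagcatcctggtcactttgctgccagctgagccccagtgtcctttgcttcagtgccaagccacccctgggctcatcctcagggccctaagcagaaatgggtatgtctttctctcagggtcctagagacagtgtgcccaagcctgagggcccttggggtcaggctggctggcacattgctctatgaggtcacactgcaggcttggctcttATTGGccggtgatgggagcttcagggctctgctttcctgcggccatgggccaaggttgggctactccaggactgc
Bdkrb2: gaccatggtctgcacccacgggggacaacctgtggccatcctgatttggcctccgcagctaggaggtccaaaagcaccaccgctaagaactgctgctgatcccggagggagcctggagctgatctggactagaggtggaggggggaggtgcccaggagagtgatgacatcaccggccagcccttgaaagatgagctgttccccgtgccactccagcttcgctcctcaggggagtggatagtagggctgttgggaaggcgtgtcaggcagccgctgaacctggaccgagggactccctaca

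The Agt window holds a TATA box 30 to 25 bases before the start, and the upstream Ace window holds one on the opposite strand 31 to 26 bases before it. Among all 32851 windows of this length, 13.6% hold these letters on either strand. The internal Ace window holds a CCAAT box read on the opposite strand, as 37.4% of windows do on either strand. The Bdkrb2 window holds none of the 5 motifs, which says only that these letters are not in this window. In the windows not printed, Enpep holds a pair of TATA box matches and a CCAAT box. Of the 3 Mme windows 2 overlap and share 1 AP-1 match (7.81% of all windows hold one) and 1 CCAAT box, and the earlier of the 2 also holds another CCAAT box and 1 NF-kB match (8.46%). The cyclic AMP response element, held by 1.79% of all windows, is in none of the 8 windows of these genes.

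Across the libraries, the files hold 18.3 to 25.9 M fragments each. Levels are given as CPM, fragments relative to the library total, scaled by TMM factors, which correct for libraries in which a few very abundant transcripts take a larger share of the fragments. A gene was called when its change against the other group exceeded 1.5-fold in edgeR's TREAT test at an adjusted p below 0.05, over all genes tested. The 3 comparisons with PBS share the same PBS libraries. Endothelial markers were plain, with Cldn5 at 2310 to 2442 CPM and Pecam1 at 815 to 828 CPM in PBS, and both were still present at 4 h, at 472 to 480 and 390 to 402 CPM. Markers of other cells were also present, and the choroid plexus marker Ttr (9884 to 10299 CPM in PBS) was above both. Gut and secretory markers summed to 77.0 to 82.9 CPM at 15 min against 62.7 to 66.0 in PBS. Of the 10 tested, 4 were called higher and none lower at 15 min, against 3.31% and 0.877% of all genes. At 4 h 2 of the 10 were higher and 2 lower, against 19.0% and 13.8% of all genes. Fragments in the 15 min libraries are given for 3 genes of that list. Muc5ac, a stomach mucin, had 424, 438 and 455 fragments in them, Gp2 had 238, 207 and 247, and Reg3g had 113, 110 and 153, while all 3 genes had 0 fragments in every PBS and every 30 min library. Of the 11 genes listed, 4 were at 0 throughout PBS and 4 throughout 30 min, but only 2 throughout 4 h. The 3 named genes were therefore not all absent at 4 h. All 3 libraries of the 15 min group held Muc5ac, Gp2 and Reg3g, so no 15 min library without them was there to compare. Their part in the 15 min results was not tested. Only pieces of whole vessels were measured, so fewer cells of a type and less RNA per cell cannot be told apart.

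Per transcript length, Ace was by far the highest of the 7 genes in every group. In PBS libraries it stood at 145 ± 1.2 TPM (a share of all transcripts, corrected for transcript length, mean ± SD, n = 3), against 25.9 ± 0.60 for Agt and 18.2 ± 0.84 for Enpep. The remaining 4 genes were below 1 TPM on average: Agtr1a at 0.898, Bdkrb2 at 0.762, Mme at 0.759 and Bdkrb1 at 0.729, each overlapping its neighbour in this order. Thus the precursor and the peptidases Ace and Enpep were plain in these vessels, whereas the receptors and the peptidase Mme were scarce. At 15 min Enpep (17.5 ± 0.84 TPM) stood above Agt (14.4 ± 1.7 TPM) with no overlap. Bdkrb1, last in PBS, was next after Ace, Agt and Enpep, and apart from the gene below it, already at 15 min (1.58 ± 0.53 TPM) and at 30 min (1.95 ± 0.45 TPM). At 4 h it held the same place, at 4.44 ± 0.73 TPM, above Bdkrb2 (1.28 ± 0.22), Mme (0.628 ± 0.26) and Agtr1a (0.159 ± 0.17) without overlap between neighbours. TPM values are not corrected for composition, so they order the genes within a group and were not compared between groups.

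**Figure D1:**
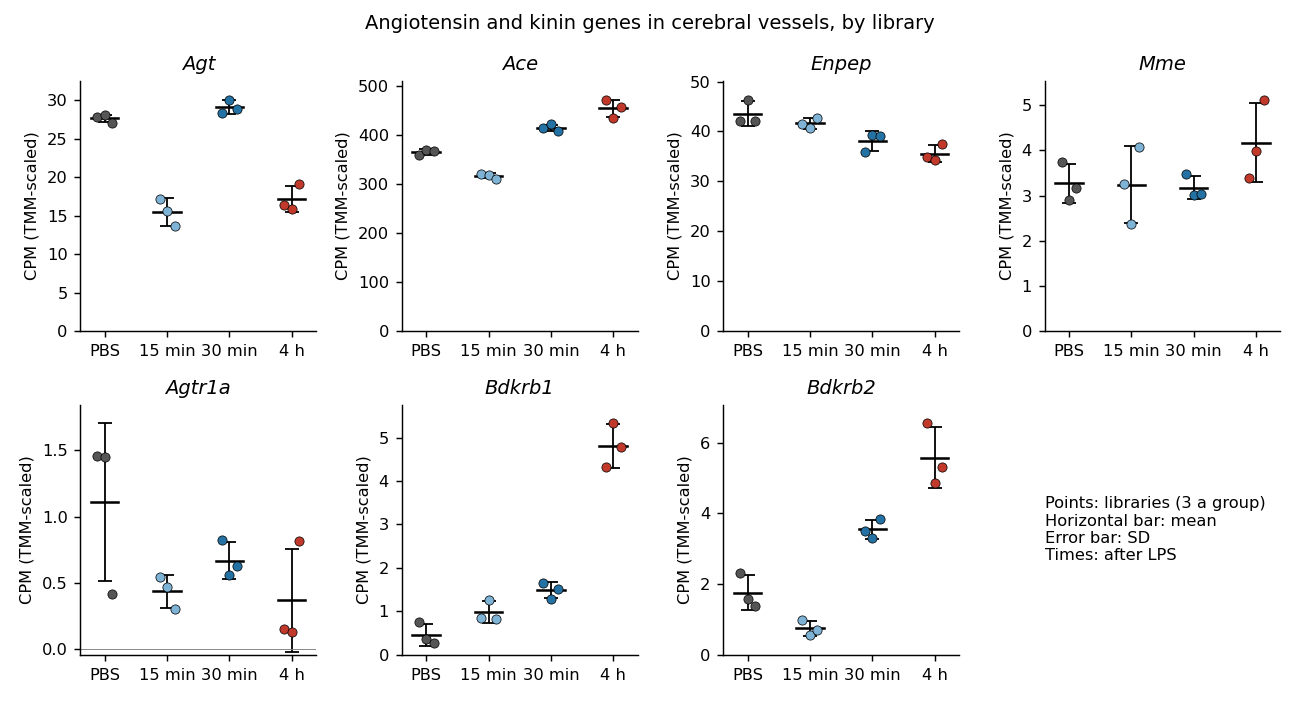
Level of each of the 7 genes in each library (y axis, CPM scaled by TMM factors, linear and separate for each gene) by group (x axis). Points are libraries, horizontal bars are means and error bars are SD (n = 3); Agt is low at 15 min and 4 h, and Bdkrb1 and Bdkrb2 are highest at 4 h.

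The first question was which of these genes had moved within minutes of LPS. At 15 min 1 of 7 was called, Agt, which was lower, against a background of 4.18% of all genes tested (3.31% higher and 0.877% lower). Agt stood at 27.76, 28.04 and 27.10 CPM in the PBS libraries and at 17.2, 15.5 and 13.7 CPM at 15 min. The groups did not overlap, and the highest 15 min library was well under the lowest PBS library. Agt fell by 0.83 on the log2 scale (SE 0.0791, adjusted p = 0.0140, edgeR), to 0.561 of the PBS level. This call was lost with DESeq2 (adjusted p = 0.0834) and with limma on log2 of the normalized gene table plus 1 or plus 10 (0.175 and 0.237, here and below in that order), and without replicate 3 of the 15 min group (log2 fold change -0.75, adjusted p = 0.143).

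At 30 min Agt was slightly above every PBS library, with 28.4, 30.1 and 28.9 CPM, a log2 fold change of 0.076 that was not called (adjusted p = 1, edgeR). The change from 15 to 30 min was tested directly and gave +0.91 on the log2 scale (SE 0.0799, adjusted p = 0.00172, edgeR), a 1.88-fold rise in 3 of 3 libraries. It was not called when libraries were scaled by size only (+0.77, adjusted p = 0.0629) or with limma (0.0676 and 0.0886). At 4 h Agt was low again, at 16.4, 15.9 and 19.1 CPM. All 3 libraries were below every PBS library, with a log2 fold change of -0.69 (95% interval -0.86 to -0.51), but the change was not called as exceeding 1.5-fold (adjusted p = 0.110, edgeR). It was called with library size only (-1.39), with no filter (adjusted p = 0.0497), with only the groups compared (0.0476) and without 4 h replicate 3 (0.0249). Against the 30 min libraries Agt fell by 0.76 (SE 0.0855, adjusted p = 0.0245, edgeR), to 0.589 of the 30 min level. That call was lost with DESeq2 (adjusted p = 0.335), with limma (0.113 and 0.148), and without replicate 2 of the 30 min group (0.0567) or replicate 1 (0.0722) or 2 (0.101) of the 4 h group. 

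The summed level of marker genes moved beside Agt in part. Smooth muscle markers (Acta2, Tagln, Myh11, Cnn1 and Myl9) summed to 3037 to 3072 CPM in PBS, 2033 to 2070 at 15 min, 2842 to 2894 at 30 min and 2799 to 2869 at 4 h, and 3 of the 5 (Acta2, Myh11 and Cnn1) were called lower at 15 min. Astrocyte markers summed to 795 to 819 CPM in PBS, 616 to 666 at 15 min, 828 to 856 at 30 min and 1450 to 1514 at 4 h, with 1 of the 6 (Gfap) called lower at 15 min. Fibroblast markers were also low at 15 min, at 373 to 387 CPM against 548 to 575 in PBS, with 2 of 6 called lower. Neuron markers were high, at 480 to 491 against 307 to 319, with 2 of 5 called higher. Over all genes 3.31% were called higher and 0.877% lower at 15 min. None of the smooth muscle, astrocyte, fibroblast or neuron markers was at 0 in any group. At 30 min and 4 h fibroblast markers were at 460 to 466 and 321 to 336 CPM. At 4 h Agt was below PBS while the astrocyte sum was above it, led by the gap junction gene Gja1 at 515 to 534 CPM against 74.0 to 75.0. Their part in the Agt result was not tested.

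Across all 12 libraries the 3 genes whose log2 levels followed Agt most closely, of 16306 compared, were Scd2 (Pearson r = 0.980), a fatty acid desaturase, the smooth muscle light chain gene Myl9 (r = 0.964) and Nadk2 (r = 0.961), a mitochondrial NAD kinase. These correlations are a description over 12 libraries that share groups. Nadk2 had group means of 26.5 CPM in PBS, 17.2 at 15 min, 30.8 at 30 min and 17.8 at 4 h.

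Among the peptidases, Ace was abundant and changed little. Its levels were 359, 369 and 367 CPM in PBS, 321, 318 and 311 at 15 min, 414, 421 and 408 at 30 min, and 470, 435 and 456 at 4 h. The 4 groups did not overlap at all, with the 15 min libraries lowest and the 4 h libraries highest. The differences from PBS were nonetheless small, at log2 fold changes of -0.20 (SE 0.0274), +0.18 (SE 0.0273) and +0.31 (SE 0.0277), and none was called as exceeding 1.5-fold (adjusted p = 1 for each, edgeR). With no fold limit each passed. At 4 h the sign depends on scaling: the log2 fold change was -0.39 when libraries were scaled by size only.

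Choroid plexus markers (Ttr, Folr1, Kl, Kcnj13, Otx2 and Clic6) summed to 10498 to 10937 CPM in PBS, 9354 to 9855 at 15 min, 13849 to 14189 at 30 min and 17637 to 18524 at 4 h, the same order of groups as Ace. Ttr, whose PBS level is given above, made up most of the PBS sum. The median log2 fold changes of the 6 against PBS were -0.20, 0.41 and 0.70 in order of time. No marker of the list was at 0. At 4 h 3 of the 6 were called higher (Ttr, Kl and Clic6), against 19.0% of all genes. None was called at 15 or 30 min, against 4.18% and 4.58% of all genes. Endothelial markers summed to 8678 to 8966, 9055 to 9126, 9871 to 9927 and 5933 to 5992 CPM in the same order, so at 4 h Ace and the endothelial sum stood on opposite sides of PBS. The 6 endothelial genes did not move together. At 15 min and again at 30 min 1 was called higher and 1 lower, and at 4 h 1 higher and 4 lower. Over all genes 3.31% were higher and 0.877% lower at 15 min, 3.78% and 0.799% at 30 min, and 19.0% and 13.8% at 4 h. The endothelial median log2 fold changes were -0.27, -0.24 and -1.05 in order of time, so the early rise of the sum was not that of most members. The part of either marker list in the Ace levels was not tested.

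Ace transcripts start at more than 1 site. The full-length transcript Ace-201, with 25 exons, held 60.3 ± 1.5% of the gene's TPM in PBS and 65.8 ± 2.9% at 4 h (SD, n = 3). Ace-202, with 14 exons, begins at chr11:105975208, close to the internal start printed above, and encodes the short form that is best known from testis. It was assigned 24.8 ± 2.5%, 26.2 ± 1.8%, 27.9 ± 1.6% and 21.5 ± 3.5% in PBS, at 15 min, at 30 min and at 4 h. Ace-202 lies within the span of Ace-201, and fragments of exons that both share can be assigned to either, so the assignment is an estimate. Ace-202 held only 13.8 ± 1.5% of the gene's fragments in PBS.

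Enpep stood at 42.03, 46.39 and 42.18 CPM in PBS, 41.4, 40.7 and 42.8 at 15 min, 35.9, 39.3 and 39.1 at 30 min, and 34.8, 34.4 and 37.5 at 4 h. The 30 min and 4 h libraries were all below the PBS libraries and the 15 min libraries overlapped them. The log2 fold changes were -0.066, -0.19 and -0.29 (95% interval at 4 h -0.42 to -0.17), none called as exceeding 1.5-fold (adjusted p = 1 for each, edgeR). With library size only the 4 h value was -0.996 and was called (adjusted p = 1.77e-07). Pericyte markers summed to 3633 to 3709 CPM in PBS, 3884 to 3903 at 15 min, 3572 to 3604 at 30 min and 3354 to 3471 at 4 h. At 4 h 2 of the 7 were called lower and none higher, against 13.8% and 19.0% of all genes. The part of pericyte markers in the Enpep level was not tested.

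Mme was low, with 44 to 108 fragments a library, and its groups overlapped at each time. It stood at 3.75, 2.90 and 3.17 CPM in PBS, 3.26, 2.38 and 4.08 at 15 min, 3.47, 3.01 and 3.04 at 30 min, and 3.39, 4.00 and 5.12 at 4 h. The log2 fold changes against PBS were -0.0089 (95% interval -0.43 to 0.42), -0.042 (-0.47 to 0.39) and +0.36 (-0.085 to 0.80), none of them called (adjusted p = 1 for each, edgeR). The 4 h interval holds both no change and a change past 1.5-fold, so neither could be told at this depth.

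Of the receptors, the angiotensin receptor Agtr1a rested on the fewest fragments. The PBS libraries held 39, 43 and 11 fragments (1.46, 1.45 and 0.420 CPM), the 15 min libraries 16, 11 and 8, the 30 min libraries 19, 13 and 14, and the 4 h libraries 2, 2 and 12 (0.154, 0.133 and 0.820 CPM). PBS replicate 3 stood with the LPS libraries and 4 h replicate 3 stood above PBS replicate 3, so the groups overlapped at each time. The log2 fold changes against PBS were -1.34 (SE 0.530), -0.73 (SE 0.514) and -1.56 (SE 0.598), with adjusted p = 0.473, 1 and 0.0845 (edgeR). At 4 h the call turned on single libraries: without PBS replicate 3 the value was -1.95 and without 4 h replicate 3 it was -2.92, and both were called, as were the values with library size only (-2.26) and with no filter (-1.62). The Agtr1a counts could also include fragments of its close paralog Agtr1b, which held 17 to 26 fragments in PBS and 2 to 5 at 4 h.

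Bdkrb1 was nearly silent in PBS and had the largest change of the 7 at 4 h. At 30 min it was the 1 gene of 7 called, against 4.58% of all genes (3.78% higher), and at 4 h it was called with Bdkrb2, against 32.8% of all genes (19.0% higher). It had 20, 11 and 7 fragments in PBS (0.749, 0.371 and 0.267 CPM) and 25, 30 and 22 at 15 min (0.848, 1.27 and 0.830 CPM). At 30 min it had 38, 30 and 34 fragments (1.65, 1.29 and 1.52 CPM), and at 4 h 56, 80 and 70 (4.32, 5.33 and 4.78 CPM). In CPM every LPS library was above every PBS library, and the 4 h libraries stood apart above the rest. The highest 15 min library (1.27 CPM) and the lowest 30 min library (1.29 CPM) nearly met. In the normalized gene table these 2 groups overlapped, at 15.8 to 29.9 and 24.6 to 40.1. The direct change from 15 to 30 min was not called (log2 fold change +0.60, SE 0.315, edgeR).

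The 15 min difference from PBS was not called (log2 fold change +1.07, SE 0.354, adjusted p = 0.393, edgeR). At 30 min Bdkrb1 rose by 1.68 on the log2 scale (SE 0.344, adjusted p = 0.0140, edgeR), 3.19-fold. That call rests on few fragments and was lost with DESeq2 (adjusted p = 0.0751), with limma (0.129 and 0.563), and without PBS replicate 2 (0.0747), PBS replicate 3 (0.0924) or 30 min replicate 1 (0.0540). At 4 h Bdkrb1 rose by 3.37 (SE 0.329, adjusted p = 3.50e-08, edgeR), 10.3-fold with a 95% interval of 2.68 to 4.05 on the log2 scale. From 30 min to 4 h it rose by 1.69 (SE 0.293, adjusted p = 0.000523), 3.23-fold, one of 2 genes of the 7 called in that comparison against 28.6% of all genes (16.9% higher and 11.8% lower). Both of these calls held under each of 10 other settings with the same fold limit or none and each of 6 fits that left out a library.

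Bdkrb1 reads were assigned to 2 of its 3 annotated transcripts. The single-exon Bdkrb1-201 held 58.2 ± 12% of TPM at 4 h and Bdkrb1-203, which has an upstream exon, 41.8 ± 12% (SD, n = 3). In PBS the share of Bdkrb1-203 ranged from 0 to 72.7% among the libraries, so at this depth no difference in shares was detectable. The genes most like Bdkrb1 over the 12 libraries were Gas5 (r = 0.987), a noncoding RNA host of small nucleolar RNAs, Cxadr (r = 0.985), the coxsackievirus and adenovirus receptor, and Cited2 (r = 0.982), a transcriptional co-regulator.

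Bdkrb2 moved in both directions. It had 62, 47 and 36 fragments in PBS (2.32, 1.59 and 1.37 CPM) and 29, 13 and 19 at 15 min (0.983, 0.552 and 0.717 CPM). At 30 min it had 81, 77 and 86 fragments (3.51, 3.31 and 3.84 CPM), and at 4 h 85, 73 and 78 (6.55, 4.86 and 5.33 CPM). All 15 min libraries were below all PBS libraries, while all 30 min and 4 h libraries were above them.

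Against PBS the log2 fold change of Bdkrb2 was -1.20 at 15 min (SE 0.270, adjusted p = 0.0837) and +1.01 at 30 min (SE 0.233, adjusted p = 0.184), neither of them called by edgeR. Single libraries decided these: the 15 min change was called without PBS replicate 3 (adjusted p = 0.0422) or 15 min replicate 1 (0.0366), and the 30 min change without PBS replicate 1 (0.0411). The direct comparison of 30 min with 15 min was called, with a rise of 2.22 (SE 0.259, adjusted p = 2.07e-05, edgeR), 4.65-fold, one of 2 genes of the 7 called there against 4.66% of all genes (2.70% higher and 1.96% lower). At 4 h Bdkrb2 rose by 1.66 over PBS (SE 0.234, adjusted p = 6.18e-05, edgeR), 3.16-fold. These 2 calls held under each of 10 other settings with the same fold limit or none and each of 6 fits that left out a library, although scaling by library size brought the 4 h value down to +0.96 (adjusted p = 0.0346). The change of Bdkrb2 from 30 min to 4 h was not called (+0.65, SE 0.224, adjusted p = 0.439, edgeR). Among the same 10 settings it was as low as +0.11 and was called only with no fold limit.

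The choroid plexus sum given beside Ace, in PBS mostly Ttr, had the same order of groups as Bdkrb2. The smooth muscle sum given beside Agt was also lowest at 15 min, at 2033 to 2070 CPM against 3037 to 3072 in PBS. Unlike Bdkrb2 it stood below PBS at 30 min and 4 h. Folr1, the folate receptor of choroid plexus epithelium, was among the 3 genes most like Bdkrb2 (r = 0.975). Folr1 had group means of 83.6, 71.5, 114 and 130 CPM in PBS, at 15 min, at 30 min and at 4 h. The other 2 were Cfl1 (r = 0.979), which encodes the actin-severing cofilin, and Etfa (r = 0.977), an electron transfer flavoprotein subunit. Neutrophil markers, at 2.25 to 2.71 CPM in PBS, summed to 0.983 to 1.59 at 15 min, 3.31 to 5.63 at 30 min and 183 to 190 at 4 h, and 1 of the 6 markers was at 0 in every PBS and every 15 min library. The part of these marker lists in the receptor results was not tested.

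**Figure D2:**
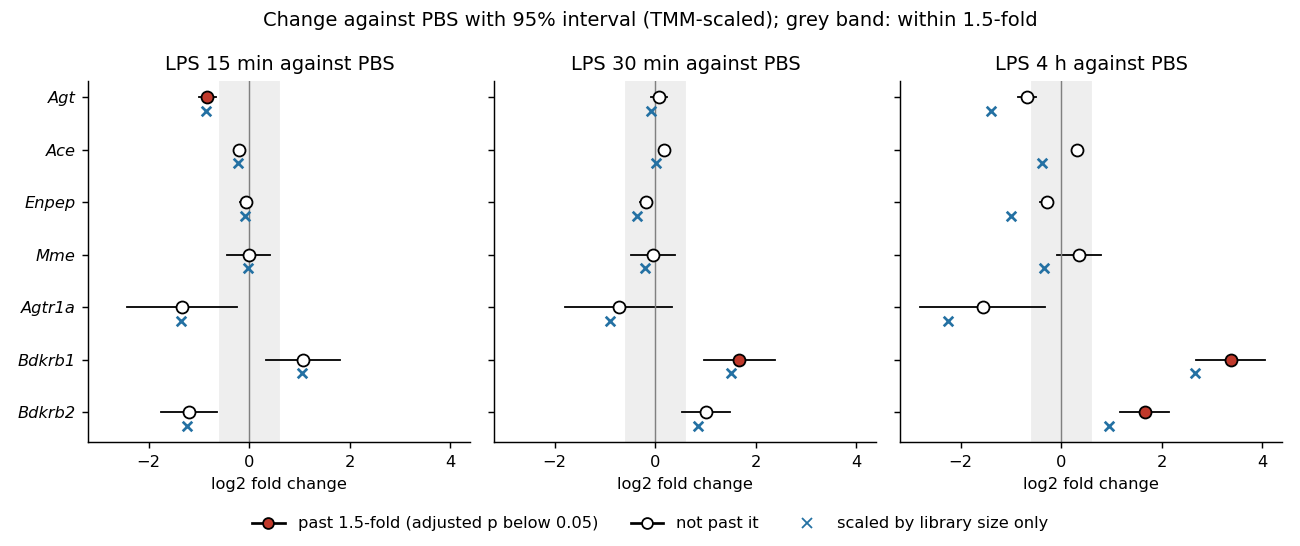
Log2 fold change against PBS (x axis) of the 7 genes (y axis) at the 3 LPS times, as circles with 95% intervals after TMM scaling, filled where the change exceeded 1.5-fold at an adjusted p below 0.05; crosses show the values after scaling by library size only. Agt at 15 min, Bdkrb1 at 30 min and Bdkrb1 and Bdkrb2 at 4 h are filled, and at 4 h every cross lies to the left of its circle.

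Taking the 7 genes as a list, the medians of the log2 fold changes, in order of time, were -0.20, 0.076 and 0.31, beside -0.0021, -0.010 and -0.0098 over all genes tested. The libraries of the groups did not overlap for 4, 5 and 5 of the 7 genes in order of time, against 49.3%, 46.7% and 70.9% of all genes. Between consecutive LPS times they did not overlap for 6 and 4 of the 7, against 47.6% and 67.5%. With no fold limit 1 higher and 3 lower were called at 15 min, 3 higher and 1 lower at 30 min, and 3 higher and 3 lower at 4 h. Over all genes the shares were 38.6% (20.4% higher, 18.2% lower), 36.9% (19.7% and 17.2%) and 68.5% (34.9% and 33.7%). Between consecutive LPS times 3 higher and none lower, then 3 higher and 1 lower, were called in that way, against 37.4% (19.2% and 18.2%) and 65.3% (31.9% and 33.3%) of all genes. At 4 h scaling mattered for the whole table: without TMM factors the median of all genes moved by -0.70, the share of called genes that were higher went from 58.0% to 18.2%, and 2 of the 7 were called higher and 3 lower (Agt, Agtr1a and Enpep), against 9.96% and 44.7% of all genes under that scaling. At 30 min the median moved by -0.16 and that share went from 82.6% to 61.4%. From 15 to 30 min the median moved by -0.14 and the share from 58.0% to 37.2%, and from 30 min to 4 h by -0.54 and from 58.9% to 21.7%.

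**Figure D3:**
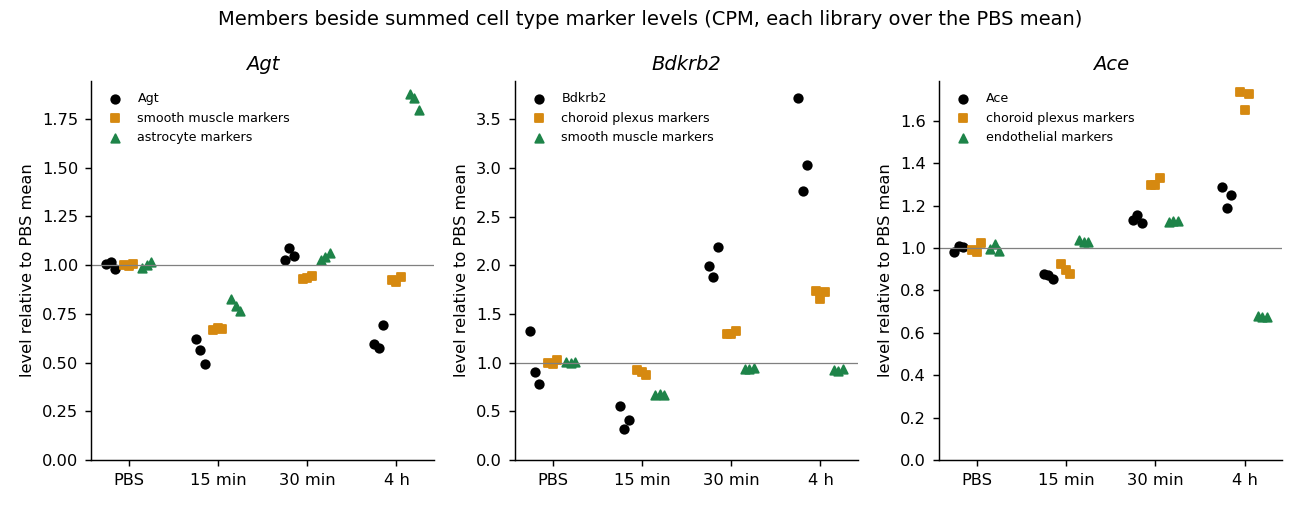
Levels of Agt, Bdkrb2 and Ace (black circles) and summed levels of 2 marker lists beside each (orange squares and green triangles), per library, relative to the mean of the PBS libraries (y axis, linear), by group (x axis). The smooth muscle and astrocyte sums are low at 15 min beside Agt, and the smooth muscle sum is also shown beside Bdkrb2. The choroid plexus sum is lowest at 15 min and highest at 4 h, as Bdkrb2 and Ace are.

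The rest of the pathway was read from a list of 34 other genes, of which 25 passed the filter. At 15 min 1 of the 25 was called higher and none lower, against 3.31% and 0.877% of all genes. The gene was Cpm, carboxypeptidase M, a membrane enzyme that trims the last residue of kinins to give ligands of the B1 receptor. It stood at 21.3, 18.2 and 19.9 CPM in PBS and at 33.3, 35.4 and 34.3 CPM at 15 min, without overlap, a rise of 0.80 on the log2 scale (SE 0.059, adjusted p = 0.00527, edgeR). The call was lost with DESeq2 (adjusted p = 0.143), with limma (0.0905 and 0.123) and without PBS replicate 2 (0.0686). At 30 min none of the 25 was called by edgeR, 1 had an unadjusted p under 0.05, and DESeq2 and limma called none; Cpm stood at 30.6, 30.9 and 29.8 CPM.

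At 4 h 4 of the 25 were called higher and 5 lower, against 19.0% and 13.8% of all genes. The median log2 fold change of the 25 was -0.024, beside -0.0098 over all genes. Cpm rose furthest, by 2.01 on the log2 scale (SE 0.0581, adjusted p = 5.47e-17), to 82.2, 78.3 and 78.6 CPM. It was also called when libraries were scaled by size only, unlike the 3 others. Serping1, which encodes the C1 inhibitor that restrains plasma kallikrein, rose by 1.11 (adjusted p = 1.37e-12), from 79.5 ± 2.3 to 171 ± 3.2 CPM. Ece1, endothelin-converting enzyme, which also cleaves bradykinin, rose by 0.98 (adjusted p = 1.05e-13), from 414 ± 2.9 to 813 ± 4.9 CPM. Lnpep, an aminopeptidase that binds angiotensin IV, rose by 0.95 (adjusted p = 1.92e-08), from 102 ± 0.56 to 197 ± 14 CPM. After scaling by library size only, Serping1 was at +0.40, Ece1 at +0.27 and Lnpep at +0.25, with adjusted p = 1 for each.

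The 5 that fell at 4 h were all peptidases, but so are Cpm, Ece1 and Lnpep, which rose, and most of the genes tested. Anpep, aminopeptidase N, which continues the breakdown after aminopeptidase A, fell by 1.76 (adjusted p = 2.92e-13, edgeR). Its levels were 41.95, 39.95 and 42.03 CPM in PBS and 11.8, 13.5 and 11.2 CPM at 4 h. Prcp, prolylcarboxypeptidase, which removes the last residue of angiotensin II, fell by 1.39 (adjusted p = 5.62e-10), from 37.1 ± 1.1 to 14.1 ± 1.3 CPM. Dpp4, dipeptidyl peptidase IV, fell by 1.22 (adjusted p = 1.49e-05), from 13.5 ± 0.79 to 5.82 ± 0.62 CPM, and Dpp3, an angiotensin-degrading peptidase, fell by 0.83 (adjusted p = 0.00153), from 42.3 ± 0.90 to 23.9 ± 1.7 CPM. The Dpp3 call was lost with limma (adjusted p = 0.103 and 0.122). Xpnpep2, membrane aminopeptidase P, which cleaves bradykinin, fell by 2.71 (SE 0.689, adjusted p = 0.00571) but rested on 19, 42 and 30 fragments in PBS and 0, 5 and 2 at 4 h. Anpep is also a pericyte gene, and the pericyte sums are given beside Enpep.

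By branch, of 11 tested genes of angiotensin formation and breakdown 1 was higher and 3 lower at 4 h, and of 8 genes of kinin breakdown 2 were higher and 2 lower. Over all genes 19.0% were higher and 13.8% lower. Of 4 other angiotensin receptors and partners none was called, although their median log2 fold change at 4 h was -1.02. With no fold limit 2 of these 4 were called lower at 4 h, against 33.7% of all genes. Of 2 tested genes of kinin formation and its inhibitor 1 was higher, the inhibitor gene Serping1, and the plasma kallikrein gene Klkb1 was not called. Abundant genes that were not called at any time included Ctsd, cathepsin D, at 599 ± 12 CPM in PBS and 601 ± 16 CPM at 4 h, and Atp6ap2, the prorenin receptor, at 97.4 ± 5.4 and 142 ± 8.6 CPM (log2 fold change 0.55, adjusted p = 0.936). Rnpep, Xpnpep1, Agtrap, Thop1, Prep, Nln, Ece2, Mas1 and Cpn1 were likewise above 1 TPM in PBS and not called against it at any time, with log2 fold changes at 4 h from -0.54 for Mas1 to 0.58 for Nln. Mas1, a receptor for an angiotensin fragment, stood at 4.68, 4.52 and 4.50 CPM in PBS and 9.02, 7.31 and 8.45 CPM at 15 min, without overlap but not called (log2 fold change 0.86, adjusted p = 0.320, edgeR).

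Renin and the kininogens were scarce in these vessels, unlike Agt. Renin (Ren1) had 5 to 10 fragments a library in PBS, 6 to 11 at 15 min, 9 to 13 at 30 min and 1 to 5 at 4 h, and was below the filter. Kininogen transcripts were nearly absent: Kng1 had 0 fragments in 11 of 12 libraries. Kng2, singled out after its values were seen, had 1, 0 and 0 fragments in PBS, none at 15 min, 0, 0 and 1 at 30 min, and 13, 5 and 10 at 4 h. It was below the filter and so not tested in the fit above. With no filter its 4 h change was called (adjusted p = 0.00313, edgeR), but fragments of Kng1 and Kng2, which are close copies, could be exchanged between them.

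**Figure D4:**
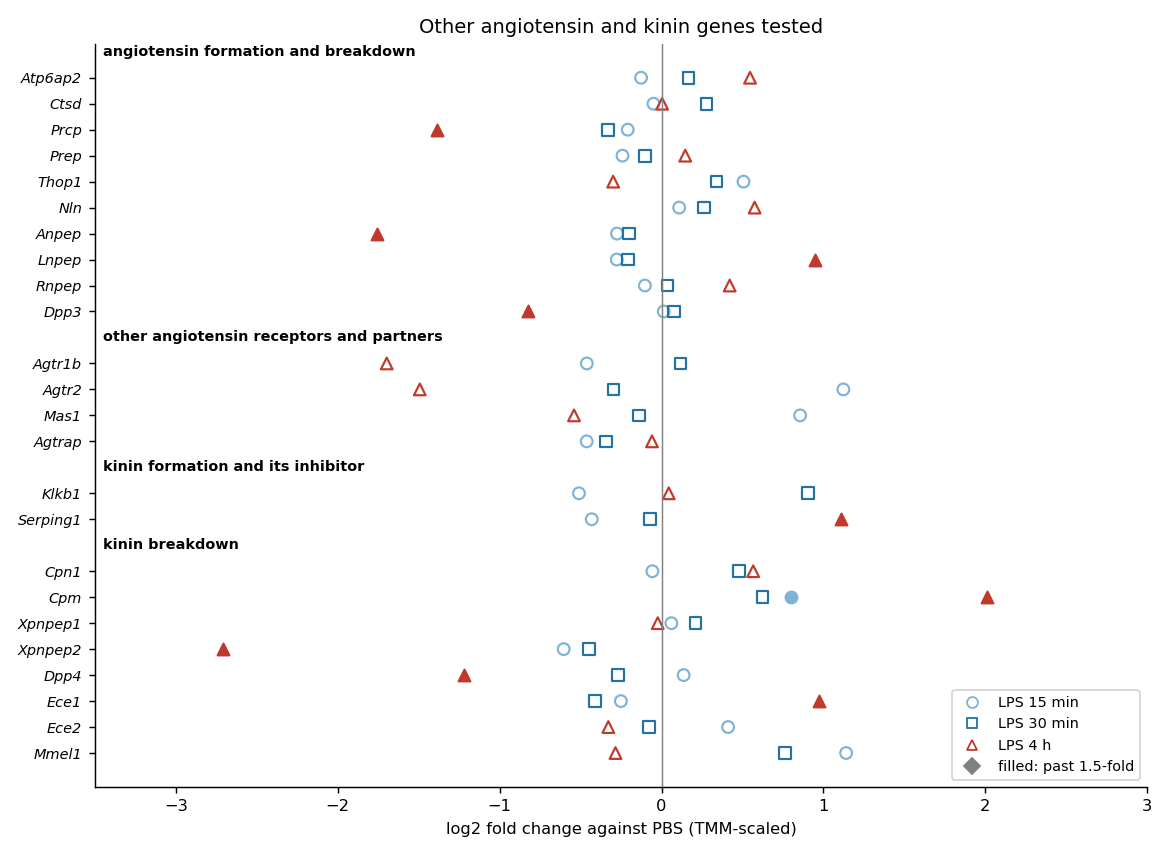
Log2 fold change against PBS (x axis, TMM-scaled) of other angiotensin and kinin genes tested, in 4 groups (y axis), at 15 min (circles), 30 min (squares) and 4 h (triangles). Filled symbols mark changes called as exceeding 1.5-fold: Cpm at 15 min and, at 4 h, Cpm, Serping1, Ece1 and Lnpep to the right and Xpnpep2, Anpep, Prcp, Dpp4 and Dpp3 to the left.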

How the data were processed

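Cerebral vessel RNA of 12 libraries (3 in each of 4 groups) was amplified with an oligo(dT)-primed full-length cDNA kit, SMART-Seq v4, and sequenced as 150-base pairs. Per the submitters' processing notes the authors quantified transcripts with Salmon 1.2.1 on GRCm38.p6, and per the methods used tximport and DESeq2 for genes. The deposited per-library files hold estimated counts and TPM for each transcript, with its effective length. A deposited gene table holds the authors' DESeq2-normalized counts (a signal: counts over size factors, not whole numbers); its columns were matched to libraries by the library number in the file names, and 12 of 12 correlated best with their own library. No column was left out.

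Of 140948 transcripts, 139852 were joined to genes; the rest held 0.482 to 0.850% of fragments. The annotated Agt transcript was not among the joined identifiers. Of the 1096 unjoined transcripts 1 matched the authors' Agt row within 0.220% in all 12 libraries (the next closest was off by 60.2%), after scaling learned from 303 genes with 1 transcript, and its counts were used for Agt. Counts were summed to genes and rounded. The main test was edgeR 4.0.16 (R 4.3.3) quasi-likelihood with TREAT against 1.5-fold, TMM factors, filterByExpr defaults, all 12 libraries in one fit, and Benjamini-Hochberg adjustment over 19151 genes. The script was tested on simulated counts. Alternatives were DESeq2 1.42.0, limma 3.58.1 on log2 of the normalized table plus 1 or 10, other scaling, no filter, no fold limit, a further limit of 1.5 on the log2 scale, a length offset, only the groups compared, the replicate number as a block, and leaving out each library. Correlations used log2(CPM + 0.5) over genes of at least 1 CPM.

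Depth was 18.3 to 25.9 M fragments; members with under 100 fragments a library are limited by counting. The reads carry no molecular identifiers, so counting error is a lower limit. P-values measure the spread between these pools of 2 mice. Values were named for all members, for pathway genes called against PBS or above 1 TPM, for the 3 genes most like each called member, and for marker genes that moved beside a member. The members, lists and rules were chosen with earlier results of these data known. A tested gene of the pathway lists is part of the counts but is not reported here.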

Additional observations from a re-analysis of the deposited data

Results flagged for a closer look

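Members whose level differed between LPS times, by the test of that difference itself (edgeR TREAT against 1.5-fold over all genes), were Agt and Bdkrb2 between 15 and 30 min, at log2 differences of 0.91 and 2.22, and Agt and Bdkrb1 between 30 min and 4 h, at -0.76 and 1.69. For Bdkrb2 every 15 min library was below every PBS library and every 30 min library above it. For Agt the 15 min and 4 h libraries were below every PBS library. In CPM the Agt 30 min libraries were slightly above every PBS library, a change that was not called (log2 fold change 0.076, edgeR). In the authors' normalized counts Agt in replicate 1 of the 30 min group (621.06) was below PBS replicate 2 (621.49), so these groups overlapped. Groups of 3 libraries are too small for a test of outlying libraries.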

How the results depend on the processing

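For members, the count called was 1 at 15 min, 1 at 30 min, 2 at 4 h, 2 for 30 against 15 min and 2 for 4 h against 30 min. Under DESeq2 it was 0, 0, 2, 2 and 1, and under limma with either pseudocount 0, 0, 2, 1 and 1. At an unadjusted p under 0.05 DESeq2 had 2 members at 15 min and 1 at 30 min, and limma 2 and 1 with a pseudocount of 1 and 1 and 1 with 10. With a further limit of 1.5 on the log2 scale the counts were 0 at 15 min, 1 for 30 against 15 min and 1 for 4 h against 30 min; with no fold limit 4, 4, 6 and, for 4 h against 30 min, 4. Library size only gave 5 at 4 h and 1 for 30 against 15 min, beside 54.6% and 5.38% of all genes, and no filter gave 4 at 4 h. Leaving out a library gave 0 to 2 at 15 min, 0 to 2 at 30 min, 2 to 4 at 4 h and 1 to 2 for 4 h against 30 min. Among pathway genes, the counts of 1, 0 and 9 became 0 at 15 min with DESeq2, limma or the further limit (at an unadjusted p under 0.05, DESeq2 had 1 and limma 2 and 1), 0 to 1 leaving out a library, 12, 11 and 17 with no fold limit, and at 4 h 14 with library size only (1 higher, 13 lower) and 3 with the further limit. Over all genes the shares with no fold limit were 38.6%, 36.9% and 68.5%. With library size only at 4 h they were 9.96% higher and 44.7% lower. Directions reversed only for small differences: with library size only, Agt at 30 min (-0.0889), Ace at 4 h (-0.39) and against 30 min (-0.41), and Mme at 4 h (-0.35) and against 30 min (-0.14). Mme also reversed at 15 min without PBS replicate 1 (0.10) or 15 min replicate 2 (0.16), at 30 min without PBS replicate 1 (0.0654), and for 30 against 15 min with the length offset (0.13), limma (0.16 and 0.14), without 15 min replicate 3 (0.16) or 30 min replicate 2 (0.0028). Leaving out a library, the Mme values ranged from -0.2046 to 0.1639 at 15 min, from -0.1238 to 0.0654 at 30 min and from -0.2063 to 0.1621 for 30 against 15 min. By fragments the share of Ace-202 was 13.8, 14.8, 15.9 and 11.6% in PBS and at the 3 times, and that of Bdkrb1-203 at 4 h 29.4%. None (0 of 3) of the most alike genes of Agt, Bdkrb1 or Bdkrb2 was kept over the 4 group means. The cause of these changes was not tested.

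The replicate numbers did not pair the libraries: of 18 pairs of same-numbered libraries none had deviations correlated above 0.1 (largest 0.068). With the replicate number as a block the members called were 1, 1, 2, 2 and 2 and the pathway genes 1, 0 and 9, and no member's call changed.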

Other observations

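Klkb1, plasma kallikrein, which frees bradykinin from kininogen, was not called against PBS but was the 1 pathway gene of 25 called between 15 and 30 min, where 4.66% of all genes were called (2.70% higher). It was singled out after its values were seen. It stood at 1.05, 1.02 and 1.06 CPM at 15 min and 3.03, 3.06 and 2.28 CPM at 30 min, against 1.24, 1.62 and 1.60 CPM in PBS. The difference between 15 and 30 min was 1.42 on the log2 scale (SE 0.277, adjusted p = 0.0181, edgeR), on 24 to 71 fragments a library. The call was lost with DESeq2 (adjusted p = 0.158), with limma (0.234 and 0.438), and without any of the 3 libraries of the 15 min group (0.0531, 0.0561 and 0.0506) or replicate 1 (0.0702) or 2 (0.0725) of the 30 min group.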
